A study of Mus musculus with 44 samples.

Results

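Expression of 9 genes of the ovarian theca layer and of the hedgehog pathway was followed in mouse ovarian follicles given PFNA, perfluorononanoic acid, one of the persistent fluorinated surfactants. They are the theca hormone genes Cyp17a1 and Insl3, the ligands Dhh and Ihh, the receptor Ptch1, the decoy receptor Hhip and the transcription factors Gli1, Gli2 and Gli3. The 9 genes were chosen by symbol, and all 9 had a row among the 22674 genes of the maturation table and among the 18274 genes of the ovulation table. The follicles came from CD-1 mice of WT genotype, and each exposure window had controls of its own. In the maturation window 11 libraries had received DMSO, the solvent, and 10 had received PFNA. In the ovulation window hCG (human chorionic gonadotropin, given to trigger ovulation) had been added to every library, 12 with hCG alone and 11 with hCG+PFNA. The labels give no dose, no exposure time and no age, and do not say whether libraries of a group came from separate animals or cultures, so the p-values measure the spread between these libraries, which may be technical.

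In a growing follicle, granulosa cells secrete Desert hedgehog and Indian hedgehog, which bind Patched1 on cells of the surrounding theca. Binding relieves the block that Patched1 places on Smoothened, and the GLI factors then act on their target genes. Ptch1, Gli1 and Hhip are themselves textbook targets of the pathway, so their transcripts are often read as its output, whereas GLI3 acts largely as a repressor when the ligands are absent. Theca cells make androgens through CYP17A1, the 17-alpha-hydroxylase and 17,20-lyase, and secrete INSL3, a peptide hormone of the relaxin family.

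Promoter sequences are shown for Insl3, Dhh and Ihh, the members with a lower transcript level under PFNA in the maturation window. Of the 9 members, 7 had an entry in the RefSeq promoter table of GRCm38.p6. Each sequence runs 5′ to 3′ on the strand of the gene and ends just before its transcription start. Capitals mark the shorter core CAAGGNC of the site of the steroidogenic factor NR5A1, and the GC box GGGCGG, both searched on both strands.
Insl3, chr8:71689002-71689213, plus strand: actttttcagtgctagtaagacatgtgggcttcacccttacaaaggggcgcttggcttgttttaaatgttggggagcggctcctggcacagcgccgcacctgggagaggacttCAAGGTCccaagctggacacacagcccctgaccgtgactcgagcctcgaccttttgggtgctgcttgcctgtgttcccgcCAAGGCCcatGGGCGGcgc
Dhh, chr15:98898541-98898790, minus strand: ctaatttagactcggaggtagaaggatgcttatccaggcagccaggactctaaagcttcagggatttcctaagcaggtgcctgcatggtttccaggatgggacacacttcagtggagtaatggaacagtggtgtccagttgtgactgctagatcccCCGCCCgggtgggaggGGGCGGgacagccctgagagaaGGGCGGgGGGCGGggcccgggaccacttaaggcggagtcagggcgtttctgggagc
Ihh, chr1:74951673-74951922, minus strand: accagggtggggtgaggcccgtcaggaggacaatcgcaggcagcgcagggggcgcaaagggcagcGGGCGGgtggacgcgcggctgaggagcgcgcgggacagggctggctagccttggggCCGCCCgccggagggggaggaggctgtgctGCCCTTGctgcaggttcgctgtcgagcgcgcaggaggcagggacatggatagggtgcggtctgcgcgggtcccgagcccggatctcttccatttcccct

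The Insl3 sequence held 2 NR5A1 cores and 1 GC box, the Dhh sequence held 4 GC boxes and no core, and the Ihh sequence held 2 GC boxes and 1 core. Of 32851 RefSeq promoter windows of 250 bases, 15.0% held the core and 32.7% held a GC box. These letters were chosen after the longer ones had been searched. The GLI letters GACCACCCA, present in 0.225% of windows, and the full NR5A1 letters TCAAGGTCA, present in 0.387%, were in none of the 7 member windows. The windows of Ptch1 and Gli3 lay inside the annotated gene, and Cyp17a1 and Gli1 had no window. The bases before the annotated start of Ptch1, Gli3, Cyp17a1 and Gli1 were therefore not searched. A match is a description of the letters and not evidence of binding.

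Of 6 lists of cell type markers that of granulosa cells had the highest sum of TPM in the maturation window, and markers of theca and stroma were present in every group. In the maturation window 12 granulosa markers summed to between 38498 and 61067 TPM (a level divided by transcript length and scaled to the same library total) in controls and to between 17442 and 46541 TPM with PFNA. The 14 theca and stroma markers summed to between 228 and 1135 TPM in controls (median 508) and to between 420 and 2039 TPM with PFNA (median 736). In the ovulation window that list summed to between 240 and 2357 CPM (TMM-normalized counts scaled to the library size and not divided by length) in controls (median 1477) and to between 1468 and 4190 CPM with PFNA (median 1960). None of these markers was at 0 in every library. In bulk follicles, fewer theca cells and less theca RNA per cell cannot be told apart. PFNA replicates 1 and 2 of the maturation window scored -18.1 and -10.6 on the first principal component, inside the control range of -37.7 to -7.60, and results of that window are also given without them. Ovulation totals ranged from 10600931 to 19511531 counts per library, and the depth of the maturation libraries is unknown.

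Among maturation controls the members fell into an abundant, an intermediate and a scarce set. Ihh had the highest mean level, 283 ± 64.6 TPM (SD, n = 11), followed by Cyp17a1 at 176 ± 78.3, Insl3 at 159 ± 133 and Dhh at 99.7 ± 10.9. Ranges of neighbours in this order overlapped, down to Dhh. Ptch1 (12.2 ± 3.78 TPM) lay below Dhh in 11 of 11 controls, and Gli1 (6.27 ± 3.63 TPM) below Ptch1 in 11 of 11, although their ranges overlapped. Gli3, Hhip and Gli2 had means of 0.656, 0.585 and 0.467 TPM and did not separate from each other beyond their spread. Gli1 lay above Gli3 in 11 of 11 controls, and the ranges of Gli1 and Gli3 did not overlap. Dhh was the steadiest member, with a coefficient of variation of 10.9%, and Insl3 the most variable, with 84.0%.

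The comparison of the maturation window asked how the members responded to PFNA while follicles matured. Both hedgehog ligands and Insl3 fell, Ptch1 rose, and Cyp17a1 and Gli1 did not pass the test. Of the 6 members with a mean of at least 1 TPM, 1 was called higher and 3 lower by limma at a Benjamini-Hochberg adjusted p under 0.05, where 29.4% of the 13712 genes tested were called, 13.3% higher and 16.1% lower. Their median log2 fold change was -0.33, against 0.02 for all genes tested. The log2 fold changes here were computed after adding 1 to each TPM value, so those of low genes are understated.

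**Figure D1:**
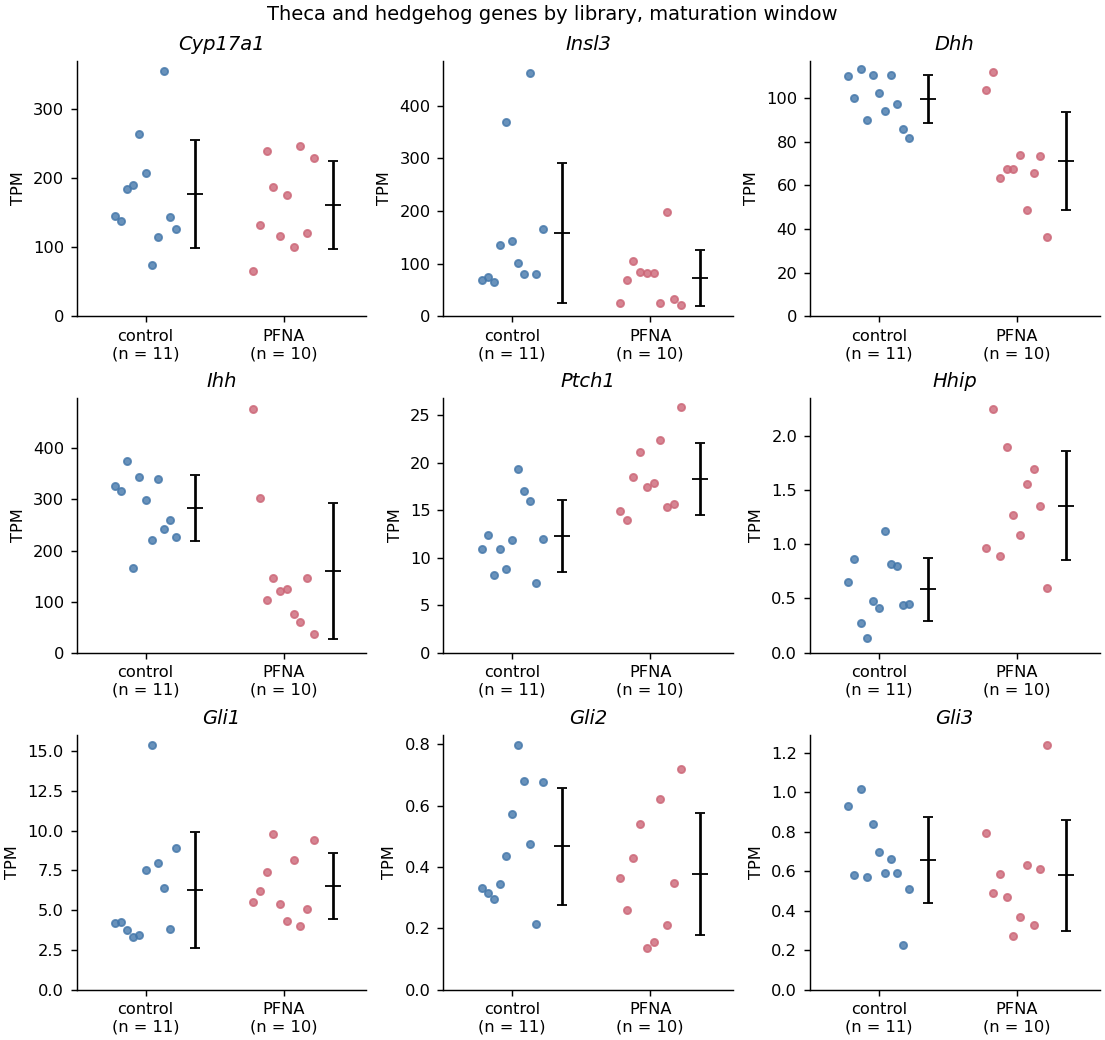
Level in TPM of each of the 9 genes (vertical axes from 0) in 11 control and 10 PFNA libraries of the maturation window, 1 point per library, with the mean and SD in black. For Dhh and Ihh, 8 of 10 PFNA libraries lie below every control, and for Ptch1 all 10 lie above the control median.

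Ihh (Indian hedgehog, chromosome 1, 74945315 to 74951672, with gene positions throughout on GRCm38) ranged from 166 to 375 TPM in controls (median 299) and from 36.3 to 476 TPM with PFNA (median 124). PFNA replicates 1 and 2, at 476 and 302 TPM, lay above the control median, and the other 8 PFNA libraries, at 36.3 to 147 TPM, lay below every control. The mean fell from 283 ± 64.6 (SD, n = 11) to 160 ± 133 TPM (SD, n = 10), which limma gave as a log2 fold change of -1.15 with a standard error of 0.32 and an adjusted p of 0.0098. Without PFNA replicates 1 and 2 the log2 fold change of Ihh was -1.55 (limma adjusted p = 2.7e-05). These were the PFNA libraries with the most Ihh, so leaving them out could only widen the fall and is no separate support for it.

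Dhh (Desert hedgehog, chromosome 15, 98891152 to 98898540) ranged narrowly in controls, from 81.8 to 113 TPM (median 100.3), and from 36.2 to 112 TPM with PFNA (median 67.7). The same pair, PFNA replicates 1 and 2, were at 104 and 112 TPM, and the other 8 lay below every control. Its mean fell from 99.7 ± 10.9 to 71.3 ± 22.6 TPM, which limma gave as a log2 fold change of -0.54 with a standard error of 0.14 and an adjusted p of 0.0070. Without that pair, the highest of the PFNA group for Dhh, the fall could again only widen, to a log2 fold change of -0.70 (limma adjusted p = 7.2e-05). Dhh shares 12.4% of its exonic bases with Rhebl1 on the same strand, which was at 1.78 TPM in controls and 1.81 TPM with PFNA.

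Ihh exceeded Dhh in 11 of 11 controls, with a ratio between 1.84 and 3.31 (median 2.95). With PFNA it did so in 9 of 10 libraries, with a ratio between 0.924 and 4.59 (median 1.75). Oocyte markers, 12 genes that include Gdf9, Bmp15 and the zona genes, were low in many of the same libraries. They summed to between 137 and 222 TPM in controls, to 144 and 121 TPM in PFNA replicates 1 and 2, to between 0.425 and 7.40 TPM in replicates 3 to 9, and to 372 TPM in replicate 10, where Ihh and Dhh were lowest. Of the 11 oocyte markers tested 11 were called lower, and 6 of 12 granulosa markers were called lower and none higher. Among all genes tested 13.3% were called higher and 16.1% lower. The part of these cell types in the ligand levels was not tested.

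Insl3 (chromosome 8, 71689214 to 71690575) ranged from 64.0 to 463 TPM in controls (median 101) and from 22.0 to 199 TPM with PFNA (median 74.5). Of the PFNA libraries 4 lay below every control, and controls 10 and 6, at 463 and 370 TPM, lay above every PFNA library. The mean fell from 159 ± 133 to 72.1 ± 53.6 TPM, which limma gave as a log2 fold change of -1.12 with a standard error of 0.41 and an adjusted p of 0.045. Leaving out single libraries ended the call in 9 of 21 fits (adjusted p from 0.017 to 0.087 over the 21), and without PFNA replicates 1 and 2 (log2 fold change -1.01, adjusted p = 0.080). Insl3 shares 64.8% of its exonic bases with Jak3 on the same strand, and how the authors' counting divided the shared reads is not known, which makes its level uncertain. Jak3 was at 9.80 ± 2.60 TPM in controls and 8.79 ± 3.58 TPM with PFNA (limma adjusted p = 0.50).

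Cyp17a1 (chromosome 19, 46667165 to 46673172) ranged from 73.5 to 355 TPM in controls (median 145) and from 65.4 to 247 TPM with PFNA (median 154). The groups overlapped across most of their range. Its means were 176 ± 78.3 and 161 ± 63.7 TPM, and limma gave a log2 fold change of -0.13 with a standard error of 0.26 and an adjusted p of 0.75.

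Ptch1 (chromosome 13, 63508328 to 63573598) ranged from 7.36 to 19.3 TPM in controls (median 11.9) and from 13.9 to 25.9 TPM with PFNA (median 17.7). All 10 PFNA libraries lay above the control median and 3 lay above every control. Its mean rose from 12.2 ± 3.78 to 18.3 ± 3.79 TPM, which limma gave as a log2 fold change of 0.57 with a standard error of 0.15 and an adjusted p of 0.0056. Gli1 (chromosome 10, 127329882 to 127341974) ranged from 3.33 to 15.4 TPM in controls (median 4.23) and from 3.97 to 9.75 TPM with PFNA (median 5.86), and limma gave a log2 fold change of 0.13 with a standard error of 0.22 and an adjusted p of 0.68. Control replicate 8 had the highest control level of both genes and of the summed theca and stroma markers (1135 TPM), and PFNA replicate 10 had the highest Ptch1 and the highest marker sum (2039 TPM). Of 13 theca and stroma markers tested, Tagln and Enpep were called higher and none lower, beside 13.3% of all genes tested called higher and 16.1% lower. The part of the amount of theca tissue in the Ptch1 level was not tested.

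Hhip, Gli3 and Gli2 had means below 1 TPM over the 21 libraries and stood outside the test. Hhip, whose product binds and sequesters the ligands (chromosome 8, 79965851 to 80058006), ranged from 0.140 to 1.12 TPM in controls (median 0.474) and from 0.599 to 2.24 TPM with PFNA (median 1.31), and 6 PFNA libraries exceeded the highest control. In a fit with no filter on low values Hhip was called higher, and limma gave a log2 fold change of 0.56 with a standard error of 0.13 and an adjusted p of 0.0034. In that fit Gli3 (chromosome 13, 15463235 to 15730026) and Gli2 (chromosome 1, 118834132 to 119053619) did not pass (log2 fold change -0.08 and -0.09, limma adjusted p 0.65 and 0.52). Gli3 ranged from 0.228 to 1.02 TPM in controls and from 0.273 to 1.24 TPM with PFNA, and Gli2 from 0.213 to 0.799 and from 0.135 to 0.719 TPM. No member of the 6 tested had groups without overlap, a pattern found in 1.28% of the genes tested.

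After hCG, the comparison asked the same of follicles in the ovulation window. Dhh, Ptch1 and Gli1 rose with PFNA, and Hhip and Gli3 fell. Cyp17a1 and Ihh were also called higher, calls that many single libraries could undo, and Insl3 and Gli2 did not pass. By edgeR's quasi-likelihood test 5 of the 9 members were called higher and 2 lower at an adjusted p under 0.05, where 73.2% of 13441 genes were called, 38.0% higher and 35.2% lower. A share of 7 in 9 is near this background. The median log2 fold change of the 9 was 0.45, against 0.04 for all genes tested. Counts are not divided by length, so levels are compared only within a gene.

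**Figure D2:**
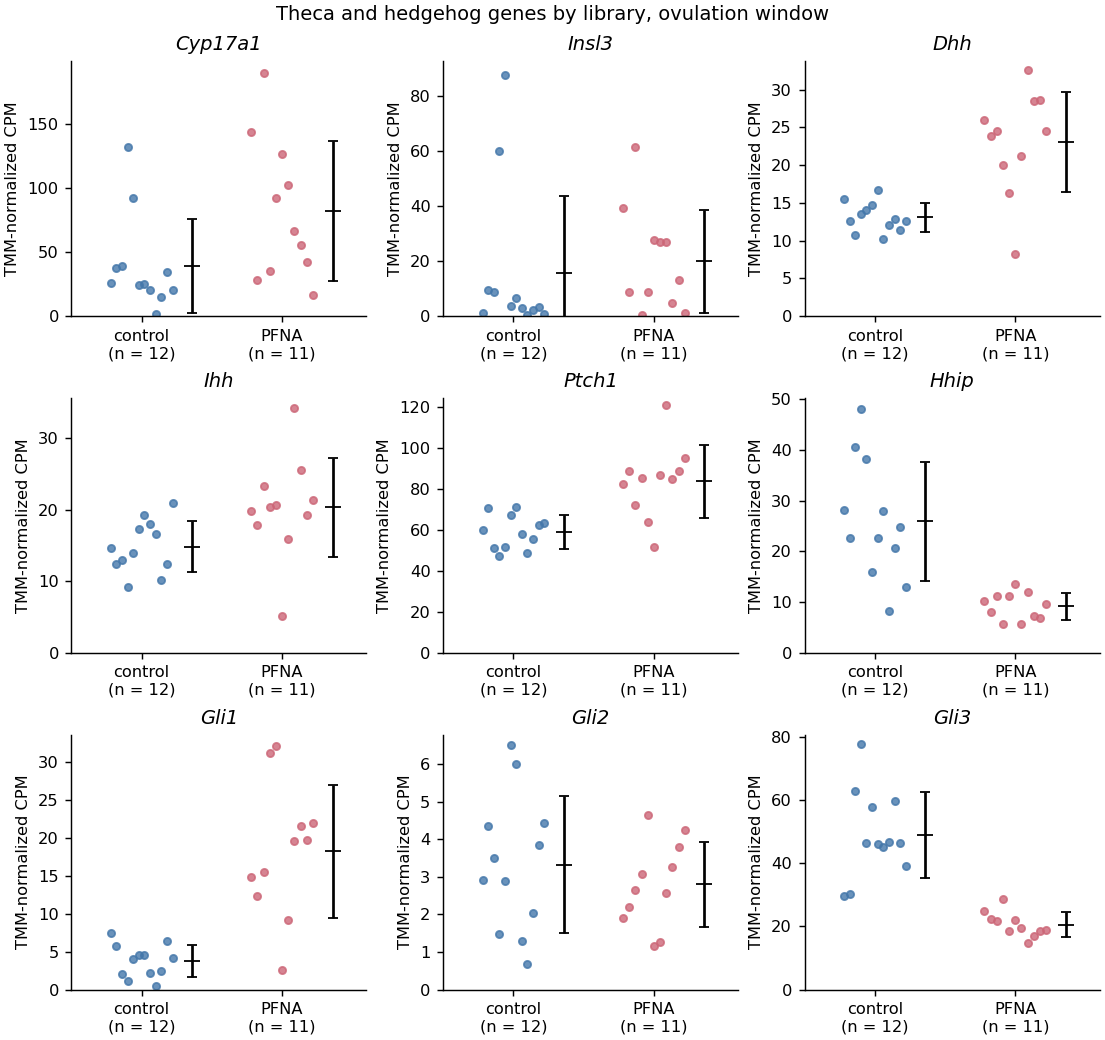
Level in TMM-normalized CPM of each of the 9 genes (vertical axes from 0) in 12 control and 11 PFNA libraries of the ovulation window, 1 point per library, with the mean and SD in black; an SD bar that would pass below 0 ends at the axis. Gli3 is the only member whose groups do not overlap, and 10 of 11 PFNA libraries have more Gli1 than any control.

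Gli1 had the widest change. It ranged from 0.523 to 7.47 CPM in controls (median 4.09) and from 2.63 to 32.1 CPM with PFNA (median 19.6). PFNA replicate 6 was at 2.63 CPM, among the controls, and the other 10 lay above every control. The mean rose 4.84-fold, from 3.76 ± 2.16 (SD, n = 12) to 18.2 ± 8.77 CPM (SD, n = 11), which edgeR gave as a log2 fold change of 2.27 with a standard error of 0.36 and an adjusted p of 4.5e-06. Gli1 shares 5.31% of its exonic bases with the antisense gene Gm47200 and 1.24% with Arhgap9, and whether the counting used strand is not given in the sources used here. Arhgap9 was at 0.163 CPM in controls and 0.340 CPM with PFNA.

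Ptch1 ranged from 47.4 to 70.9 CPM in controls (median 59.1) and from 51.7 to 121 CPM with PFNA (median 85.3). Of the PFNA libraries 9 lay above every control, and replicates 5 and 6, at 63.9 and 51.7 CPM, lay among them. The mean rose from 58.9 ± 8.20 to 83.6 ± 17.6 CPM, which edgeR gave as a log2 fold change of 0.50 with a standard error of 0.10 and an adjusted p of 0.00011.

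Hhip, the other textbook target, went the opposite way. It ranged from 8.22 to 48.1 CPM in controls (median 23.7) and from 5.71 to 13.5 CPM with PFNA (median 9.54), and 10 of 12 controls lay above every PFNA library. Control replicates 9 and 12, were the controls within the PFNA range. The mean fell from 25.9 ± 11.7 to 9.22 ± 2.67 CPM, which edgeR gave as a log2 fold change of -1.49 with a standard error of 0.23 and an adjusted p of 3.5e-06.

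Gli3 ranged from 29.7 to 77.6 CPM in controls (median 46.4) and from 14.7 to 28.6 CPM with PFNA (median 19.5). Every PFNA library lay below every control. Groups without overlap, in either direction, were found for 26.0% of the genes tested. Its mean fell from 49.0 ± 13.7 to 20.6 ± 3.87 CPM, which edgeR gave as a log2 fold change of -1.25 with a standard error of 0.14 and an adjusted p of 1.2e-08. Gli2, the main activator of the pathway in many tissues, ranged from 0.673 to 6.49 CPM in controls and from 1.17 to 4.64 CPM with PFNA, and edgeR gave a log2 fold change of -0.25 with a standard error of 0.31 and an adjusted p of 0.47.

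Dhh ranged from 10.2 to 16.6 CPM in controls (median 12.7) and from 8.27 to 32.6 CPM with PFNA (median 24.5). PFNA replicate 6 lay below every control, replicate 5 lay among the controls at 16.4 CPM, and the other 9 lay above them all. The mean rose from 13.1 ± 1.92 to 23.1 ± 6.63 CPM, which edgeR gave as a log2 fold change of 0.82 with a standard error of 0.15 and an adjusted p of 2.3e-05. Ihh ranged from 9.25 to 20.9 CPM in controls (median 14.3) and from 5.20 to 34.2 CPM with PFNA (median 20.4). PFNA replicate 6 again had the lowest value, and 4 PFNA libraries exceeded the highest control. Its log2 fold change was 0.45 (SE 0.19, edgeR adjusted p = 0.035), and leaving out single libraries ended the call in 8 of 23 fits (adjusted p from 0.00097 to 0.091).

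Cyp17a1 was scattered in both groups, from 1.79 to 132 CPM in controls (median 25.5) and from 16.3 to 190 CPM with PFNA (median 66.2). Of the PFNA libraries 10 lay above the control median and 2 above every control. Its means were 39.0 ± 36.6 and 81.8 ± 54.6 CPM, and edgeR gave a log2 fold change of 1.07 with a standard error of 0.46 and an adjusted p of 0.040, and leaving out single libraries ended the call in 11 of 23 fits (adjusted p from 0.0057 to 0.094). Insl3 ranged from 0.224 to 87.6 CPM in controls (median 3.47) and from 0.492 to 61.3 CPM with PFNA (median 13.1). Control replicates 5 and 4, at 87.6 and 60.0 CPM, stood far above the other controls, which were at 9.36 CPM or less. The log2 fold change of Insl3 was 0.37 (SE 0.78, edgeR adjusted p = 0.68) and moved between 0.02 and 1.17 as single libraries were left out. Its estimated counts were not whole in 95.7% of libraries (more than 0.01 from a whole number), against none for Cyp17a1, and Jak3, with which it shares exons, rose from 3.23 ± 1.40 to 11.3 ± 2.30 CPM (log2 fold change 1.81, edgeR adjusted p = 3.0e-08).

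Some libraries that stood apart for the members also stood apart in their theca and stroma markers, and others did not. Control replicate 9 had the lowest Cyp17a1, Insl3, Gli1, Gli2 and Hhip of the controls and a marker sum of 240 CPM, the lowest of all, whereas PFNA replicates 5 and 4, highest for Gli1, had the highest sums, 4190 and 3499 CPM. PFNA replicate 6 had the lowest sum of its group, 1468 CPM. In contrast, control replicates 4 and 5, highest of the controls for Cyp17a1 and Insl3, had sums of 1389 and 1565 CPM, near the control median, and PFNA replicate 3, highest of its group for both genes, had 1770 CPM. PFNA replicate 4 had the lowest Insl3 of its group, 0.492 CPM, beside its high sum. Markers of other cell types were also called with PFNA after hCG, beside 38.0% of all genes tested called higher and 35.2% lower. Of 12 granulosa markers 9 were called higher and 2 lower, although their sum overlapped between groups. Of the 14 theca and stroma markers 8 were called higher and 1, Pdgfra, lower. All 6 endothelial markers were called higher, and their sum ranged from 30.0 to 123 CPM in controls and from 39.3 to 364 CPM with PFNA. Of 11 oocyte markers tested 5 were called higher, of 5 leukocyte markers 1 and of 2 ovarian surface epithelium markers 2, with none lower. The surface epithelium sum ranged from 5.44 to 24.2 CPM in controls and from 24.1 to 79.4 CPM with PFNA. Without PFNA replicate 6 and control replicate 9 the log2 fold change of Gli1 was 2.27 (edgeR adjusted p = 1.1e-07). The part of theca content in the rise of Gli1 was not tested.

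Whether PFNA acted alike on the members in both windows was tested per gene, by subtracting the maturation effect, on log2(TPM + 1), from the ovulation effect, on log2(CPM + 1). Of the 6 members that could be compared, 5 differed, all with the higher effect after hCG. Among the 11215 genes compared 67.7% differed, 3593 with the higher and 3995 with the lower effect after hCG. Hhip, Gli3 and Gli2, outside the maturation test, were not compared. With no filter on low values their maturation effects were 0.56, -0.08 and -0.09, and edgeR gave -1.49, -1.25 and -0.25 after hCG. Dhh went from an effect of -0.54 in the maturation window to 0.72 in the ovulation window, a difference of 1.26 (SE 0.21, adjusted p = 8.2e-07). Ihh went from -1.15 to 0.37, a difference of 1.51 (SE 0.37, adjusted p = 0.00058), so the ligand genes moved in opposite directions in the windows, although on this scale the Ihh effect after hCG did not pass (limma adjusted p = 0.091). Gli1 went from 0.13 to 1.98, a difference of 1.85 (SE 0.39, adjusted p = 6.6e-05). Insl3 went from -1.12 to 0.99, a difference of 2.11 (SE 0.82, adjusted p = 0.023), but its ovulation effect depended on the method, with 0.99 by limma on log2(CPM + 1) and 0.37 by edgeR, and passed by neither. For Cyp17a1 the difference was 1.36 (SE 0.55, adjusted p = 0.027), and the call was lost without ovulation PFNA replicate 1, 3 or 6. Ptch1 had nearly equal effects of 0.57 and 0.48, and its difference of -0.09 (SE 0.18) did not pass (adjusted p = 0.66). The windows were deposited as separate tables in different units, and a batch that changed how follicles responded and the window itself cannot be told apart.

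**Figure D3:**
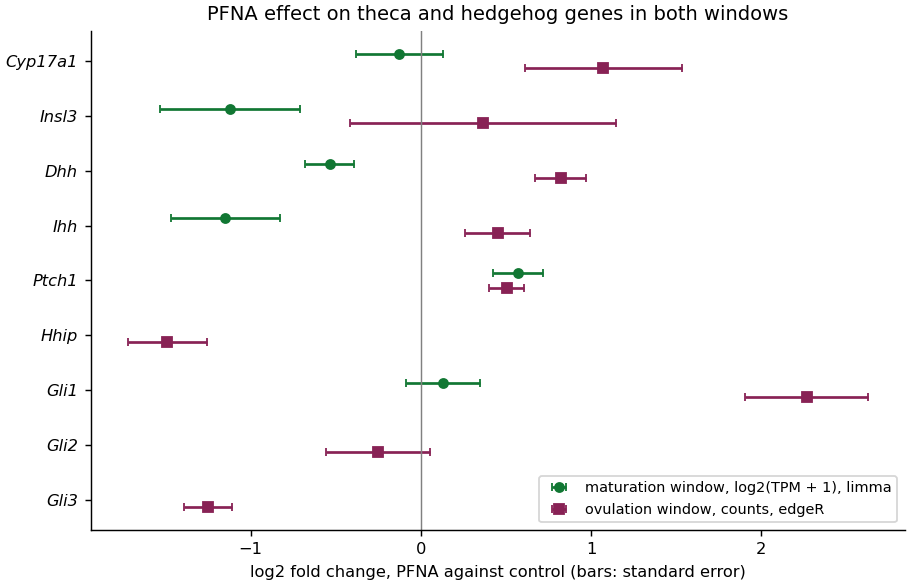
Log2 fold change of each member with PFNA (horizontal axis, bars are standard errors) in the maturation window (circles, limma on log2(TPM + 1)) and in the ovulation window (squares, edgeR on counts). Dhh and Ihh lie on opposite sides of 0 in the windows and Ptch1 lies near 0.5 in both; Hhip, Gli2 and Gli3 were not tested in the maturation window.

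Relations among members were examined within each group, so that the PFNA effect could not make them, for 6 pairs in 4 groups, 24 relations in all (Pearson's r and Spearman's rho on log2(value + 1), permutation p, two-sided, adjusted over the 24). Cyp17a1 and Insl3 went together across ovulation controls (n = 12, r = 0.84, permutation p = 0.00022, adjusted p = 0.0053; rho = 0.87, p = 0.00055, adjusted p = 0.0084). They did so across ovulation PFNA libraries as well (n = 11, r = 0.83, permutation p = 0.0015, adjusted p = 0.018; rho = 0.88, p = 0.00070, adjusted p = 0.0084). Without the 2 libraries farthest from the median of Cyp17a1, r was 0.88 and 0.70. The same pair in the maturation window had r = 0.69 in controls (permutation p = 0.018, adjusted p = 0.063; rho = 0.45, p = 0.16, adjusted p = 0.32) and 0.57 with PFNA (permutation p = 0.083, adjusted p = 0.22; rho = 0.59, p = 0.081, adjusted p = 0.19), which did not pass.

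**Figure D4:**
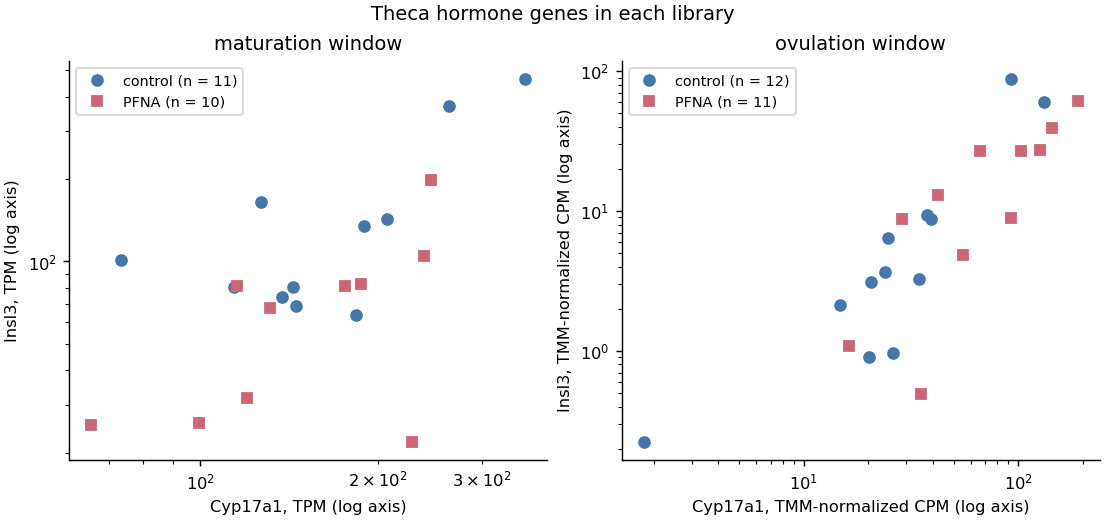
Insl3 against Cyp17a1 in each library (log axes), in TPM in the maturation window and TMM-normalized CPM in the ovulation window, with circles for controls and squares for PFNA. In the ovulation window libraries rich in one gene are rich in the other; in the maturation window PFNA replicate 10 lies apart, with 229 TPM of Cyp17a1 and 22.0 TPM of Insl3.

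Ptch1 and Gli1 also went together among controls, in the maturation window (n = 11, r = 0.79, permutation p = 0.0031, adjusted p = 0.021; rho = 0.81, p = 0.0038, adjusted p = 0.024) and in the ovulation window (n = 12, r = 0.77, permutation p = 0.0035, adjusted p = 0.021; rho = 0.78, p = 0.0041, adjusted p = 0.024). Without the 2 libraries farthest from the median of Ptch1, r was 0.67 and 0.58. Maturation PFNA libraries had a similar r that did not pass after adjustment (n = 10, r = 0.75, permutation p = 0.013, adjusted p = 0.052; rho = 0.62, p = 0.062, adjusted p = 0.16), and r was 0.80 without the 2 farthest. With PFNA after hCG the relation did not pass (r = 0.50, permutation p = 0.13, adjusted p = 0.26; rho = 0.14, p = 0.69, adjusted p = 0.82), and r was -0.32 without the 2 farthest libraries; the difference between groups was not tested. Ptch1 with Hhip passed by rank in maturation controls (rho = 0.77, permutation p = 0.0075, adjusted p = 0.036; r = 0.73, p = 0.011, adjusted p = 0.052) and had r = -0.25 in ovulation controls (permutation p = 0.43, adjusted p = 0.51; rho = -0.41, p = 0.19, adjusted p = 0.32). The relations of Ptch1 and Gli1 with Cyp17a1 did not pass in any group (adjusted permutation p at least 0.22 for r and at least 0.12 for rho). With Ptch1, r ranged over the groups from -0.50 to 0.34 and rho from -0.66 to 0.22. With Gli1, r ranged from -0.53 to 0.31 and rho from -0.59 to 0.12.

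The genes whose levels followed Cyp17a1 most closely across controls, by Pearson's r of log2 values, were Alas1, Spcs2 and Tor1a in the maturation window (r from 0.89 to 0.93 over 11 libraries, among 6454 genes) and Plagl1, Smoc2 and Serpinb2 in the ovulation window (r from 0.94 to 0.96 over 12 libraries, among 8591 genes). Those nearest to Ptch1 were Wbp4, Bri3bp and Cbx6 (r from 0.95 to 0.96) and Dennd2a, Cds2 and Wipi1 (r from 0.89 to 0.95). The lists of the windows shared no gene. These are descriptions over few libraries.

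Other genes of the hedgehog pathway, a list of 43, were read beside the members. In the maturation window 34 were tested, of which 6 were called higher and 2 lower, beside 29.4% called among all genes, with a median log2 fold change of 0.12. Gpr161, a ciliary receptor that restrains the pathway, rose from a mean of 5.85 to 8.06 TPM (log2 fold change 0.41, limma adjusted p = 0.0015). Nr2f2, a nuclear receptor of theca and stroma, and Kif7, a ciliary kinesin that regulates the GLI factors, were also called higher (log2 fold change 0.59 and 0.30, limma adjusted p 0.015 and 0.019). Sufu, which holds the GLI factors in check, fell from 8.91 ± 1.41 to 6.66 ± 1.39 TPM (log2 fold change -0.37, limma adjusted p = 0.0084), and Evc2, a ciliary partner of Smoothened, had a log2 fold change of -0.42 (adjusted p = 0.011). The count higher was 10 without PFNA replicates 1 and 2, and 3 without PFNA replicate 10. The count lower was 5 without control replicate 11. Over all genes these fits called 2600 higher, 1456 higher and 2331 lower, against 1824 higher and 2206 lower with all libraries. Shh, the remaining ligand, was at means of 0.0300 TPM in controls and 0.0150 TPM with PFNA and was not tested.

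In the ovulation window 39 of the 43 were tested, of which 13 were called higher and 16 lower, or 29 in all. Their median log2 fold change was -0.02. Among all genes tested 73.2% were called, 38.0% higher and 35.2% lower. Of 5 genes of the cilium, the organelle in which the pathway signals, 4 were called higher and none lower. Ift88 rose from 3.27 ± 1.16 to 16.3 ± 3.61 CPM (log2 fold change 2.31, edgeR adjusted p = 9.0e-11), and Ift172 and Dync2h1, which like Ift88 serve transport within cilia, rose with log2 fold changes of 1.76 and 0.76. Of 15 transducers and GLI regulators 4 were called higher and 9 lower. Gpr161 fell from 40.1 ± 5.26 to 14.3 ± 2.09 CPM (log2 fold change -1.49, edgeR adjusted p = 1.6e-13), Prkaca, a catalytic subunit of protein kinase A, had a log2 fold change of -0.82, and Csnk1a1, a casein kinase, of -0.66. Of 6 receptor-side genes 4 were called lower, among them Smo (log2 fold change -0.24, edgeR adjusted p = 0.017), and 1 higher. Smo, the signal transducer that Patched1 restrains, had been called higher in the maturation window (log2 fold change 0.37, limma adjusted p = 0.031). Of 9 target genes known from other tissues 2 were called higher and 3 lower. The PFNA effect on Gpr161 differed between windows by -1.84 (SE 0.12, adjusted p = 3.8e-17), that on Nr2f2 by -1.32 and that on Evc2 by 1.44 (adjusted p = 8.7e-07 and 3.2e-10).

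**Figure D5:**
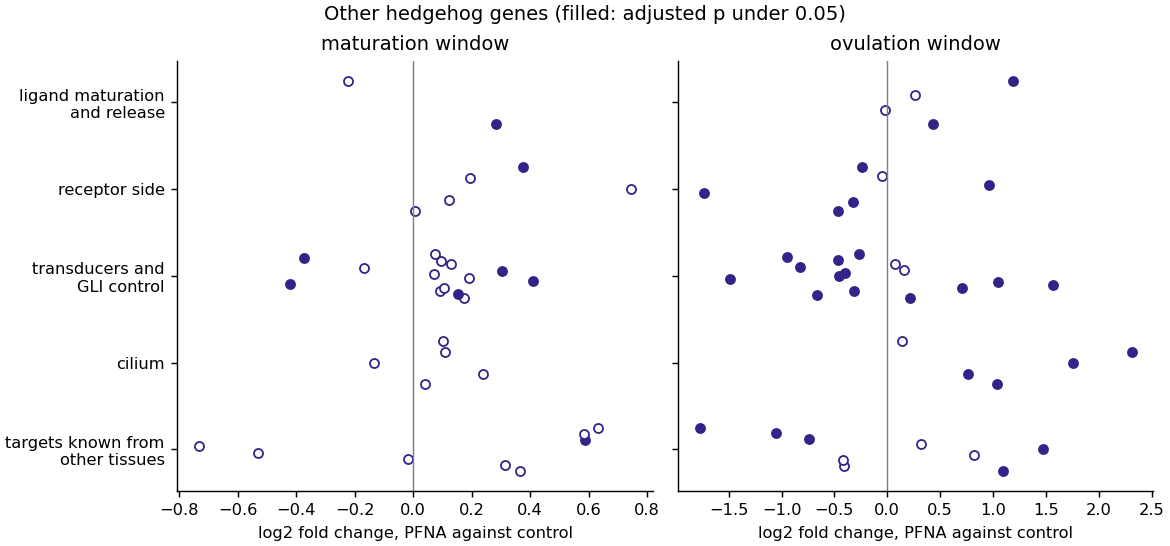
Log2 fold change with PFNA (horizontal axes, of different width) of the other hedgehog genes, 1 point per gene and 1 row per role, in each window; filled points had an adjusted p under 0.05. In the maturation window 8 of 34 points are filled and in the ovulation window 29 of 39, with 4 of the 5 cilium genes filled on the right. Of all genes tested 29.4% and 73.2% were called in these windows.

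Genes that share the steroidogenic path with Cyp17a1, a list of 20, were read in the same way. In the maturation window 18 were tested, of which 1 was called higher and 3 lower with a median log2 fold change of -0.04, beside 29.4% called among all genes. Nr0b1, a repressor of steroidogenic transcription, rose from 6.41 ± 2.79 to 21.0 ± 14.5 TPM (log2 fold change 1.41, limma adjusted p = 0.00066). Cyb5a, the cytochrome b5 that assists CYP17A1, fell from 91.1 ± 6.40 to 65.8 ± 17.4 TPM (log2 fold change -0.50, limma adjusted p = 0.0013). Star, Cyp11a1 and Lhcgr did not pass (log2 fold changes 0.39, 0.59 and -0.41, adjusted p 0.33, 0.15 and 0.36); Cyp11a1 passed without PFNA replicate 1 (0.76, adjusted p = 0.038). Without PFNA replicates 1 and 2, the counts on this list were 4 higher and 5 lower. Calls over all genes also rose in that fit, to 2600 higher and 2601 lower of 13725, from 1824 and 2206 of 13712.

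After hCG, 5 of 19 such genes were called higher and 8 lower, near the 73.2% called among all genes, with a median log2 fold change of -0.06. Scarb1 and Star, which supply cholesterol to the steroidogenic cell and its mitochondria, fell from 1507 ± 382 to 476 ± 115 CPM (log2 fold change -1.66) and from 890.5 ± 481 to 203 ± 85.0 CPM (log2 fold change -2.13). Por, the reductase that CYP17A1 depends on, fell from 363 ± 69.8 to 152 ± 46.6 CPM (log2 fold change -1.26, edgeR adjusted p = 1.2e-08). Cyp11a1, the side-chain cleavage enzyme, had a log2 fold change of -1.14 (edgeR adjusted p = 0.0014), in the direction opposite to Cyp17a1. Cyb5a and Gata4 rose (log2 fold change 0.64 and 0.86), and Lhcgr, the receptor for hCG, had 1.80 (edgeR adjusted p = 0.00053). The PFNA effect on Cyb5a differed between windows by 1.15 (SE 0.13, adjusted p = 5.6e-10).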

How the data were processed

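RNA-seq of mouse follicles was read from the deposited gene tables, per window. The authors deposited TPM for the maturation window, although the table is named as raw counts: every library sums to 1000000, and 80.2% of values lie more than 0.01 from a whole number. Its depth is unknown. For the ovulation window the authors deposited estimated counts (9.82% not whole), which were rounded. Partek, Bowtie2 and HISAT2 are named in the submitters' processing notes; their roles, the annotation and strand use are not given in the sources used here. Member positions given by the files equal those of GENCODE on GRCm38, which also gave the shared exons.

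The maturation column that matched no title was taken as control replicate 6, whose title differs by a letter. For maturation, limma 3.58.1 (trend, robust) was run on log2(TPM + 1) of genes whose mean reached 1 TPM. For ovulation, edgeR 4.0.16 was used in R 4.3.3 (filterByExpr, TMM, quasi-likelihood, robust). Window differences used limma within each table and Satterthwaite degrees of freedom. P-values were adjusted by Benjamini-Hochberg over all genes tested, with 0.05 as threshold. Members, lists and tests were chosen with earlier results of these data known. Named genes were the members; per window the 3 higher and 3 lower of smallest adjusted p in each other list; Star, Cyp11a1 and Lhcgr; and the 3 genes most correlated with Cyp17a1 and with Ptch1 in controls with a mean of at least 10. Some genes that this rule names are not reported here. Smo, Tagln, Enpep, Pdgfra, Shh and the genes that share exons with members were named after their values were seen. Correlations used 100000 permutations. Alternatives were other scalings, filters, pseudocounts, DESeq2 1.42.0, limma, a replicate block and left-out libraries. The scripts were tested on simulated data. The highest within-group correlation of libraries was 0.982, so none was deposited more than once unaltered within its group. This comparison did not cover libraries of different groups.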

Additional observations from a re-analysis of the deposited data

Results flagged for a closer look

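In the PFNA group of the maturation window, the highest and lowest library of each of 9 members and 6 marker sums was compared with the nearest other library, and the gap, as a share of the group's range, was set against Dixon's critical value for 10 libraries. Of the 15 results 5 exceeded it. For normal and independent values chance would give about 1 in 20, or 0.75. These values were not log-transformed and came from the same 10 libraries, so the number to be had by chance is not known. Insl3 was at 199 TPM in replicate 8 and at 105 TPM in the next library, a gap of 0.533 of the range. The other 4 were marker sums, all highest in replicate 10: oocyte (372 TPM, next 144, gap 0.614), theca and stroma (2039 TPM, next 1109, gap 0.574), leukocytes (156 TPM, next 84.9, gap 0.530) and ovarian surface epithelium (110 TPM, next 39.1, gap 0.777). The other groups hold more than 10 libraries and were not searched.

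The PFNA effect differed between windows for 5 of the 6 members compared. Among the 11215 genes compared 67.7% differed, 3593 with the higher and 3995 with the lower effect in the ovulation window. The differences, ovulation minus maturation on the log2 scale, were 1.36 for Cyp17a1, 2.11 for Insl3, 1.26 for Dhh, 1.51 for Ihh and 1.85 for Gli1 (limma within each table, adjusted p 0.027, 0.023, 8.2e-07, 0.00058 and 6.6e-05).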

How the results depend on the processing

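The calls of Dhh, Ihh and Ptch1 in the maturation window, and of Dhh, Ptch1, Hhip, Gli1 and Gli3 in the ovulation window, held under every alternative and left-out library. Cyp17a1 in the maturation window, never called, turned to 0.043 without PFNA replicates 1 and 2 and ranged from -0.24 to 0.0043 as single libraries were left out, reversing without PFNA replicate 1. Insl3 lost its maturation call without control replicate 5, 6, 7, 10 or 12 or PFNA replicate 1, 7, 9 or 10, and with no filter on low values (adjusted p = 0.067). After hCG, Cyp17a1 lost its call without control replicate 1, 6, 7, 8, 10 or 12 or PFNA replicate 1, 3, 5, 6 or 7, with no filter on low counts (adjusted p = 0.064) and without PFNA replicate 6 and control replicate 9 together (0.075). Ihh lost it without control replicate 2, 3, 4, 10 or 11 or PFNA replicate 3, 8 or 9, with limma (0.091) and with no filter (0.052). Members called higher there numbered 3 with no filter and 3 to 5 as single libraries were left out. In the maturation window 2 members were called higher with no filter. Other hedgehog genes called lower there numbered 4 with median-ratio size factors, and those called higher 10 without PFNA replicates 1 and 2, when 4 other steroidogenesis genes were called higher and 5 lower. As single libraries were left out, other hedgehog genes called numbered 3 to 8 higher and 2 to 5 lower, and steroidogenesis genes 1 to 4 higher and 3 to 5 lower. The cause of these moves was not tested. The difference of Cyp17a1 between windows was 1.19 without maturation PFNA replicates 1 and 2 (adjusted p = 0.051). Depth limits Insl3, Gli1 and Gli2 most in the ovulation window, whose lowest estimated counts were 2.87, 7 and 9.

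Groups share replicate numbers, but the labels do not say that a number marks a shared animal or day. Deviations of same-numbered libraries had correlations from -0.14 to 0.17 over 9 maturation pairs and from -0.19 to 0.07 over 11 ovulation pairs, 0 of which correlated best with their own number. With a replicate block over these pairs 1036 genes were called higher in the maturation window, against 1229 without the block over the same libraries and 1824 over all libraries. Other hedgehog genes called higher numbered 2 both with the block and without it over the same libraries. Insl3 did not pass there with the block (adjusted p = 0.11) or without it (0.072). After hCG, where the pairs leave out control replicate 12, 3 members were called higher with the replicate block. Cyp17a1 did not pass with the block (adjusted p = 0.056) or without that library alone (0.058), and Ihh did not pass with the block (0.068) but passed without that library (0.021).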
